A study of Mus musculus with 15 samples.

Results

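The genes described here encode the nuclear subunits of mitochondrial oxidative phosphorylation. They were taken by name, as every gene whose symbol starts with Nduf, Uqcr, Atp5, with Cox followed by a digit from 4 to 8, or is Sdha, Sdhb, Sdhc or Sdhd. This gave 91 genes of 32301 names on the array. Of these names 18217 were gene symbols, and the others were identifiers of probes that could not be named. Shares of all genes on the array, given below, count both kinds. The 91 genes were 37 subunits of complex I, 7 complex I assembly factors that share the Nduf name and 4 subunits of complex II. With them came 8 subunits of complex III, 18 of complex IV and 17 of complex V. The 91 genes had 115 probes, and each gene was followed by its brightest probe. The study set RNA from transplanted mouse hearts and livers against control organs, with 3 arrays in each of 5 groups. Heart allografts at postoperative day 5 (POD5) came from male C57BL/10 donors placed in the abdomen of CBA recipients, without removal of the recipient's own heart. Liver allografts at POD5 and at postoperative day 8 (POD8) came from B10.BR donors and replaced the liver of B10.D2 recipients. Control hearts and control livers were labelled as normal tissue, other passages of the study call them isografts, and their strain and the age of the mice were not given in the sources used here. Each array held RNA of a whole piece of organ, so fewer cells of a type and less RNA per cell cannot be told apart.

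Oxidative phosphorylation is the last stage of aerobic energy production. Complexes I and II pass electrons from NADH and succinate to ubiquinone, complex III passes them to cytochrome c, and complex IV passes them to oxygen. Complexes I, III and IV pump protons out of the mitochondrial matrix, and complex V, the ATP synthase, uses the returning protons to make ATP. Heart muscle relies on this pathway for contraction, and several small subunits of complex IV exist in a heart and skeletal muscle form and in a general form that other organs use. The subunits encoded by mitochondrial DNA had no probe that could be named here.

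The 15 arrays held 41174 probes, of which 26690 could be named through their accession. Between 87 and 89 of the 91 members were well above background on each array, and no spot was saturated. The members outside this were Cox4i2, Cox7b2, Cox8b in the liver, and Cox8c. The 75th percentile of the signal, a measure of overall brightness, ran from 394 to 710 on heart allograft arrays, from 1021 to 1247 on heart control arrays, from 92.1 to 226 on liver control arrays, and from 338 to 478 on liver allograft arrays of both days. The heart allografts lay on 1 slide and the heart controls on another, so a difference between these groups cannot be told apart from one between slides. Control hearts and control livers also shared no slide. POD5 livers shared none with control livers or with POD8 livers. The same limit holds for these comparisons. Liver allograft 3 at POD5 lay on the slide of the heart allografts. Organ labels were borne out by cell markers: 15 of 16 cardiomyocyte markers were higher and 12 of 12 hepatocyte markers lower in control heart than in control liver. All values below are log2 signals after quantile normalization over the arrays of the comparison at hand, so a value is read against others of the same comparison and probe. A gene was called where the Benjamini-Hochberg adjusted p of limma, taken over all probes, was under 0.05.

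Nuclear genes of this pathway share promoter motifs that are known from textbooks, above all the site of NRF-1 (nuclear respiratory factor 1). RefSeq promoter windows of 300 bases, 250 before and 50 after the gene start on build GRCm38.p6, were held for 75 of the 91 members. The NRF-1 letters GCGCNTGCG, searched on both strands, stood in 26 of the 75 windows (34.7%) and in 7.12% of the windows of all 27025 genes in that table. The YY1 letters AAGATGGC stood in 10 member windows (13.3%, against 3.19% of all genes), the ETS letters CCGGAAGT in 5 (6.67%, against 4.31%), the ERR letters TNAAGGTCA in 3 (4%, against 1.43%) and the Sp1 letters GGGGCGGGG in 12 (16%, against 12.9%). No match of one motif overlapped a match of another in the member windows. Of the 32 members with a window that were called lower in heart allografts, 8 held the NRF-1 letters and 8 the YY1 letters, and of the 43 that were not called, 18 and 2 did. A match is a description of letters and does not show that a factor binds.

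The 250 bases before the start are shown for 6 members on which the results below turn, with the NRF-1 letters in capitals where they occur. Sdha (chr13:74350241-74350490, minus strand), Ndufs6 (chr13:73328483-73328732, minus strand) and Ndufa12 (chr10:94198785-94199034, plus strand) are general subunits that were called lower in heart allografts. Cox6a1 (chr5:115348959-115349208, minus strand) is a general isoform that was not called there. Sdha, Ndufs6 and Ndufa12 all held the NRF-1 letters, which stood in 8 of the 32 windows of members called lower. Ndufs6 also held the YY1 letters, after the gene start and outside the stretch shown. Cox7a1 (chr7:30183921-30184170, plus strand) and Cox8b (chr7:140900447-140900696, minus strand) are heart isoforms called lower, and neither window held any of the 5 motifs.
Sdha: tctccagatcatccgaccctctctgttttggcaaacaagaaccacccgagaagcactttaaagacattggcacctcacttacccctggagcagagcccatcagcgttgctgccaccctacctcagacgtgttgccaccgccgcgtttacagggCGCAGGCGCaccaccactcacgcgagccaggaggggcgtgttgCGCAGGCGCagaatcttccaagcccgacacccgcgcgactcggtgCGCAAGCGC
Ndufs6: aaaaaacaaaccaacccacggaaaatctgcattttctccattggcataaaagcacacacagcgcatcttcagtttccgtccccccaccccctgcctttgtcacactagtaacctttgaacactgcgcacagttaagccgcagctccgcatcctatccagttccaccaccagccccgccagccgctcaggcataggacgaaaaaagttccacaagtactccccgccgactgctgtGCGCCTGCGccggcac
Ndufa12: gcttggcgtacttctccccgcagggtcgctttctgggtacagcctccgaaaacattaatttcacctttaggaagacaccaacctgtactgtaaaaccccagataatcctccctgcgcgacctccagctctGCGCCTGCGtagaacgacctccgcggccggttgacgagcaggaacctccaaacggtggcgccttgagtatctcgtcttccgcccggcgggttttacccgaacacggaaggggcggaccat
Cox6a1: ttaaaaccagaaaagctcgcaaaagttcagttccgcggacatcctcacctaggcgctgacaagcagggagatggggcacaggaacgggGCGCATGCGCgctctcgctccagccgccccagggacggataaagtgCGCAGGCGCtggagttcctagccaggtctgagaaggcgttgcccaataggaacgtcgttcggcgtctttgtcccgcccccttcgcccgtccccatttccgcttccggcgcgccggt
Cox7a1: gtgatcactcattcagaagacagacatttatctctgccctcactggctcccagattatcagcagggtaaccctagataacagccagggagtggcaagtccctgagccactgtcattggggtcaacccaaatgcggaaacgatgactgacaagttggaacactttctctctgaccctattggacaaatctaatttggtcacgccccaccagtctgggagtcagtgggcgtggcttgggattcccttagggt
Cox8b: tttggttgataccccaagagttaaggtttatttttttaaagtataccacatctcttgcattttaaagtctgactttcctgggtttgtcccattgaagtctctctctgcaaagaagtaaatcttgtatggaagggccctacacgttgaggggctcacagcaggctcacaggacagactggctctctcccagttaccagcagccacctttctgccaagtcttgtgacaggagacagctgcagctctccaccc

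The first comparison described which members differ between the control organs. Of the 91 members, 74 were higher in control heart than in control liver and 3 were lower, where 24.5% of all genes were higher and 24% lower. The median member difference was 1.18 on the log2 scale (2.27-fold higher in heart), and the median of all genes was -0.10. By complex, 34 of 37 complex I subunits, 4 of 4 complex II, 6 of 8 complex III, 12 of 18 complex IV and 14 of 17 complex V subunits were called higher in heart. Ndufab1 (2.07) and Ndufv3 (1.32) were called higher by their brightest probes, while another probe of each was called lower (-0.76 and -0.79). With the slide as a random block 67 members were higher and 2 lower. No slide of this fit held both organs, so the block cannot tell organ and slide apart. The control hearts are also the controls of the heart allografts below, so these comparisons share arrays.

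**Figure D1:**
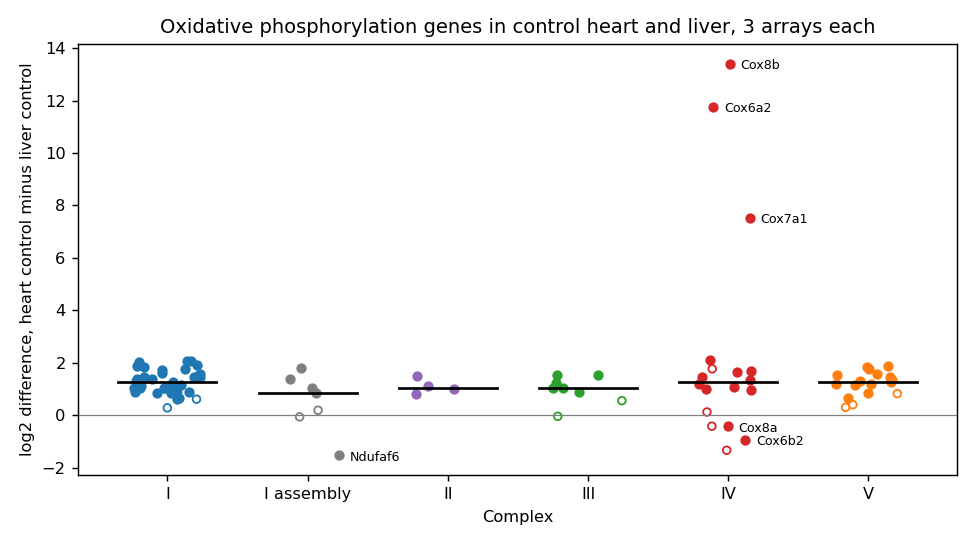
Log2 difference between control heart and control liver (vertical axis) for each of the 91 members by complex (horizontal axis), with 3 arrays per group. Filled points were called by limma at an adjusted p under 0.05, open points were not, and bars are medians. The other members called higher lie at or under 2.11, while Cox8b, Cox6a2 and Cox7a1 lie at 13.41, 11.77 and 7.53, the first with a liver signal not well above background.

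Heart isoforms of complex IV stood far above the rest. Cox8b read 15.31, 16.01 and 15.49 in the control hearts and 1.5, 3.26 and 1.82 in the control livers, where none of the 3 arrays was well above background, so its signal was at least 2811-fold higher in heart (adjusted p = 3.1e-05). Cox6a2 read 17.18, 17.58 and 17.23 against 4.99, 6.25 and 5.45, a log2 difference of 11.77 ± 0.35 (SE). Cox7a1 read 16.15, 17.04 and 16.36 against 9.63, 9.15 and 8.20, a log2 difference of 7.53 ± 0.44. For each of the 3 genes the lowest heart array lay above the highest liver array by several log2 units. Their general counterparts differed by far less. Cox8a was called lower in heart (log2 difference -0.42, adjusted p = 0.032), Cox6a1 was at -0.41 without passing the threshold (adjusted p = 0.052), and Cox7a2 was called higher at 0.98. The other members called lower were Ndufaf6, a complex I assembly factor (-1.52), and Cox6b2, the testis form of subunit 6b (-0.94), while the general Cox6b1 was 1.68 higher.

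Subunits that form the catalytic cores were higher in heart by amounts between these extremes. Ndufs1, which carries iron-sulfur clusters of complex I, was 1.83 ± 0.17 (SE) higher, and Ndufv1, which takes electrons from NADH, was 1.06 ± 0.22 higher. Uqcrfs1, the Rieske iron-sulfur protein of complex III, was 1.54 higher, and Sdhb, the iron-sulfur subunit of complex II, was 1.49 higher. Within complex V the c-ring is encoded by 3 genes that make the same mature protein. Atp5g1 was 1.78 higher in heart, Atp5g2 was 1.16 higher, and Atp5g3 differed by 0.30 (adjusted p = 0.059). Scaling each array to its 75th percentile instead of quantile normalization moved the median of all genes to -1.02 and that of the members to 0.40, so the members lay 1.43 above all genes by that scaling and 1.28 above by the other. Other core subunits were higher in heart by quantile normalization, with Sdha at 1.01, Uqcrc1 at 0.89, Cox5a at 1.09, Cox5b at 1.36, Atp5a1 at 1.19, Atp5o at 1.27 and Atp5b at 0.66. Cox4i1 was at 1.18, Ndufa4 at 1.06, Cox7a2l at 0.999, and Cox4i2 was not well above background in the control livers. With 75th percentile scaling 28 members were called higher and 8 lower, where 19.1% of all genes were higher and 52.0% lower. By their brightest probes Atp5b, Atp5g3 and Cox4i1 turned to -0.53, -0.86 and -0.065. The other probes of Atp5b were called higher in heart by quantile normalization, at 1.76 and 2.05.

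The second comparison asked how the members differed between heart allografts at POD5 and control hearts. In heart allografts 39 of 91 members (42.9%) were lower and 0 were higher, where 15.2% of all genes were lower and 15.1% higher. Among genes well above background on all arrays of a group these shares were 21.7% lower and 20.5% higher. The median member difference was -0.62 (1.53-fold lower) and that of all genes was 0.03, with 84 of the 91 members below 0. In 68 members every allograft array lay below every control array, and in 2 members above, against 24.3% and 29.7% of all genes. Complex I had 18 of 37 subunits called lower, the Nduf-named assembly factors 2 of 7, complex II 2 of 4, complex III 2 of 8, complex IV 7 of 18 and complex V 8 of 17.

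**Figure D2:**
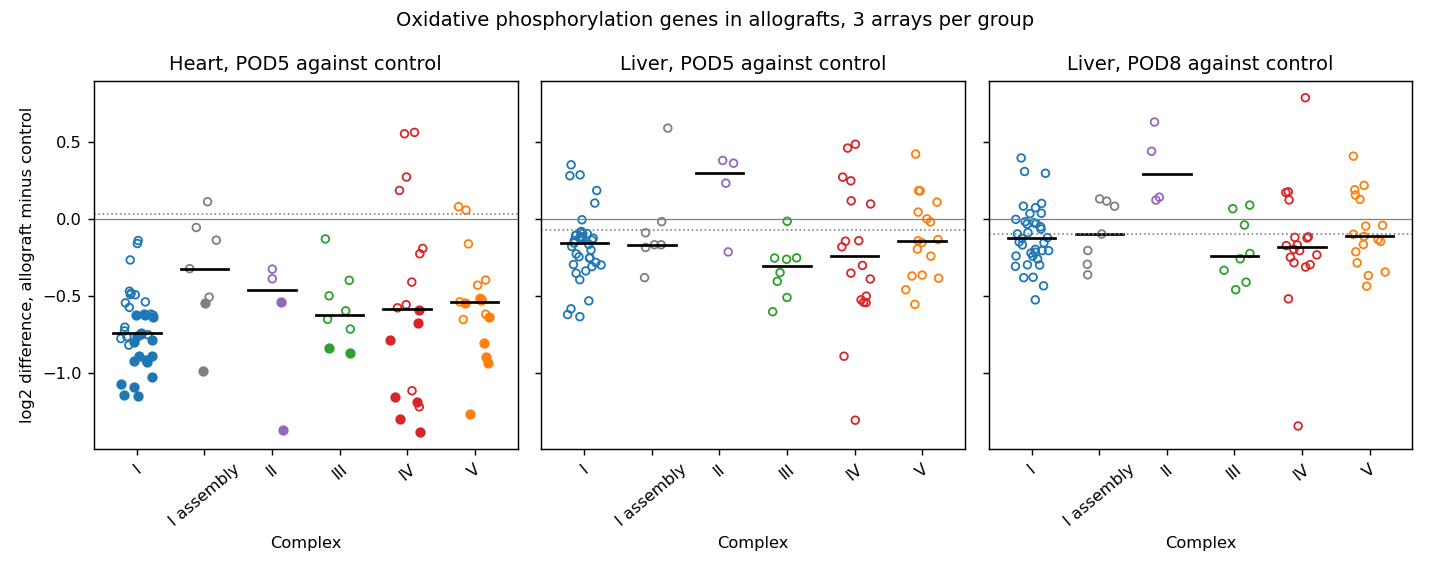
Log2 difference between allografts and controls of the same organ (vertical axis) for each member by complex (horizontal axis), for heart at POD5 and liver at POD5 and POD8. Filled points were called by limma, bars are medians per complex, and the dotted line is the median of all genes. In the heart 84 of 91 members lie below 0 and 39 are filled, and in the liver no point is filled.

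Complex I takes electrons from NADH, and all 37 of its subunits were below 0, with a median of -0.74. Ndufs1 read 14.95, 14.22 and 14.72 in the allografts and 15.59, 16.05 and 15.69 in the controls, a 2.22-fold lower signal (log2 difference -1.15 ± 0.23, SE, adjusted p = 0.019). Ndufs6, a zinc-binding accessory subunit, read 14.74, 15.18 and 14.59 against 15.74, 16.23 and 15.95 (log2 difference -1.14), and all of its 3 probes were called lower. Ndufa12, an accessory subunit added late in assembly, had the smallest adjusted p of the members (0.0073), with 15.06, 15.26 and 14.85 against 15.90, 16.22 and 16.12. The groups did not overlap in any of these 3 genes. Ndufv1 was called lower at -0.75. The subunits nearest to 0 were Ndufa8 (-0.14), Ndufs5 (-0.16) and Ndufb10 (-0.27), none of them called. Ndufa4, named for complex I and since found with complex IV, was called lower at -0.80 and is counted by its name among the 37 subunits. Among the assembly factors Ndufaf2 was called at -0.98 and Ndufaf1 at -0.55, and Ndufaf7 was at -0.06 with a 95% interval from -0.28 to 0.16.

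Complex II holds the dehydrogenase that takes electrons from succinate. Sdha, its flavoprotein, read 12.85, 12.35 and 12.69 in the allografts and 13.73, 14.49 and 13.78 in the controls (2.58-fold lower, log2 difference -1.37 ± 0.26, SE, adjusted p = 0.0155). A second probe of Sdha was at -0.61 and was not called. Sdhd, a membrane anchor, was called lower at -0.54, while Sdhb and Sdhc were at -0.39 and -0.33 and were not called. Complex III passes electrons to cytochrome c, and its 8 subunits taken by name were all below 0, with a median of -0.62. Uqcrfs1 read 14.96, 14.56 and 14.73 against 15.43, 15.85 and 15.57 (1.82-fold lower), and the core protein Uqcrc2 was called lower at -0.83. The other core protein, Uqcrc1, was at -0.40 (adjusted p = 0.15).

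Complex IV, cytochrome c oxidase, held both the largest fall and most of the members above 0. Cox8b read 14.62, 15.39 and 14.37 in the allografts and 15.91, 16.54 and 16.08 in the controls (2.60-fold lower, adjusted p = 0.0275). Cox7a1 read 15.57, 16.13 and 15.31 against 16.68, 17.37 and 16.85 (2.46-fold lower, adjusted p = 0.024). Cox6a2 read 16.79, 16.92 and 16.53 against 17.45, 17.67 and 17.48 (1.73-fold lower, adjusted p = 0.012). All 3 heart isoforms were thus lower in every allograft than in any control. Cox6a1 read 16.94, 17.03 and 16.95 against 16.88, 16.65 and 16.84, a log2 difference of 0.18 with a 95% interval from -0.07 to 0.44. Cox8a was at 0.27 (interval -0.19 to 0.73), and Cox7a2 was at -0.58 (interval -1.10 to -0.05), none of them called. The nuclear subunits Cox7b, Cox7c, Cox6c and Cox4i1 were called lower at -1.18, -1.15, -0.67 and -0.59. Cox5a and Cox5b, which bind the catalytic core, were at -0.23 and -0.56 and were not called, and neither was Cox6b1 (-1.11, interval -2.02 to -0.20). Cox7a2l, which helps to join complexes into supercomplexes, was at -0.41 and was not called. Of the isoforms known from testis, Cox6b2 was at 0.56 without being called, and Cox7b2 and Cox8c were not well above background on any heart array. Cox4i2, the isoform of lung and low oxygen, was well above background on 1 allograft and 3 control arrays and was at -1.22 (adjusted p = 0.081).

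The distance between heart and general isoforms was also read within each array, which needs no scaling between arrays. This measure was chosen after the values were seen. Relative to the control mean, the log2 ratio of Cox6a2 to Cox6a1 was -0.82, -0.80 and -1.14 in the 3 allografts and -0.23, 0.35 and -0.12 in the 3 controls, a mean difference of -0.92. For Cox7a1 to Cox7a2 the allografts were at -0.67, -0.63 and -0.73 and the controls at -0.15, 0.25 and -0.10, a mean difference of -0.68. For Cox8b to Cox8a the allografts were at -1.66, -1.52 and -1.88 and the controls at -0.38, 0.49 and -0.12, a mean difference of -1.69. In all 3 pairs the ratio was lower in each allograft than in each control, and the 2-sided exact permutation test gave p = 0.10 for each pair (0.10 after Benjamini-Hochberg over the 3 pairs), the smallest value that 3 arrays against 3 allow. A ratio of this kind shows unequal change and does not say which of the 2 genes moved.

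**Figure D3:**
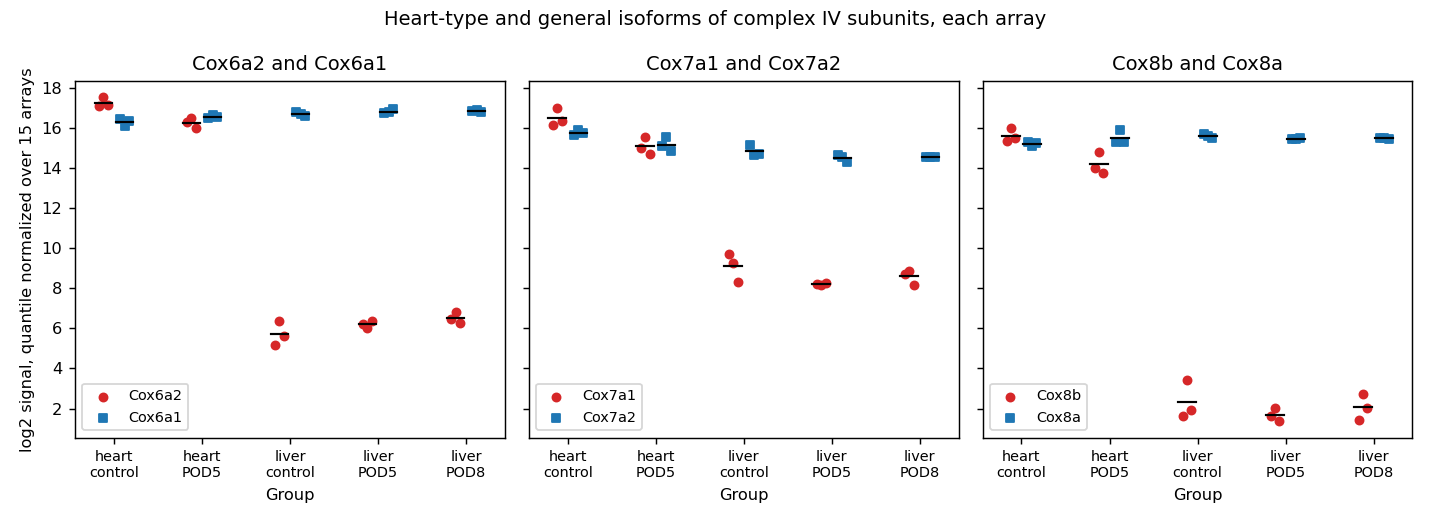
Log2 signal after quantile normalization over 15 arrays (vertical axis) for the heart form (circles) and the general form (squares) of 3 complex IV subunits, for each array of the 5 groups (horizontal axis), with bars at group means. The heart forms lie lower in the 3 heart allografts than in the 3 heart controls and are several log2 units lower in all liver groups, and the heights of 2 different probes are not comparable.

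Complex V, the ATP synthase, had 8 of its 17 subunits called lower and a median of -0.54. Atp5mpl, a small membrane subunit, read 13.81, 14.55 and 13.65 in the allografts and 15.08, 15.48 and 15.23 in the controls (2.40-fold lower, adjusted p = 0.022). Atp5c1, the gamma subunit of the rotor, read 17.24, 17.25 and 17.12 against 17.67, 17.77 and 17.74 (1.44-fold lower, adjusted p = 0.010). Atp5h and Atp5pb, subunits of the stalk that holds the catalytic head, were called lower at -0.81 and -0.52. The beta subunit Atp5b, which carries the catalytic sites, read 17.31, 17.10 and 17.33 against 17.18, 17.21 and 17.12, a log2 difference of 0.08 with an interval from -0.18 to 0.34, and its other 2 probes were at -0.38 and -0.56, none of them called. The alpha subunit Atp5a1 was at -0.43 and was not called, while its second probe was called lower at -0.84. Atp5o, the link between head and stalk, was at -0.16. The 3 genes of the c-ring differed in size: Atp5g1 was called lower at -0.94, Atp5g2 was at -0.51 (adjusted p = 0.054) and Atp5g3 was at 0.06 with an interval from -0.22 to 0.34.

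**Figure D4:**
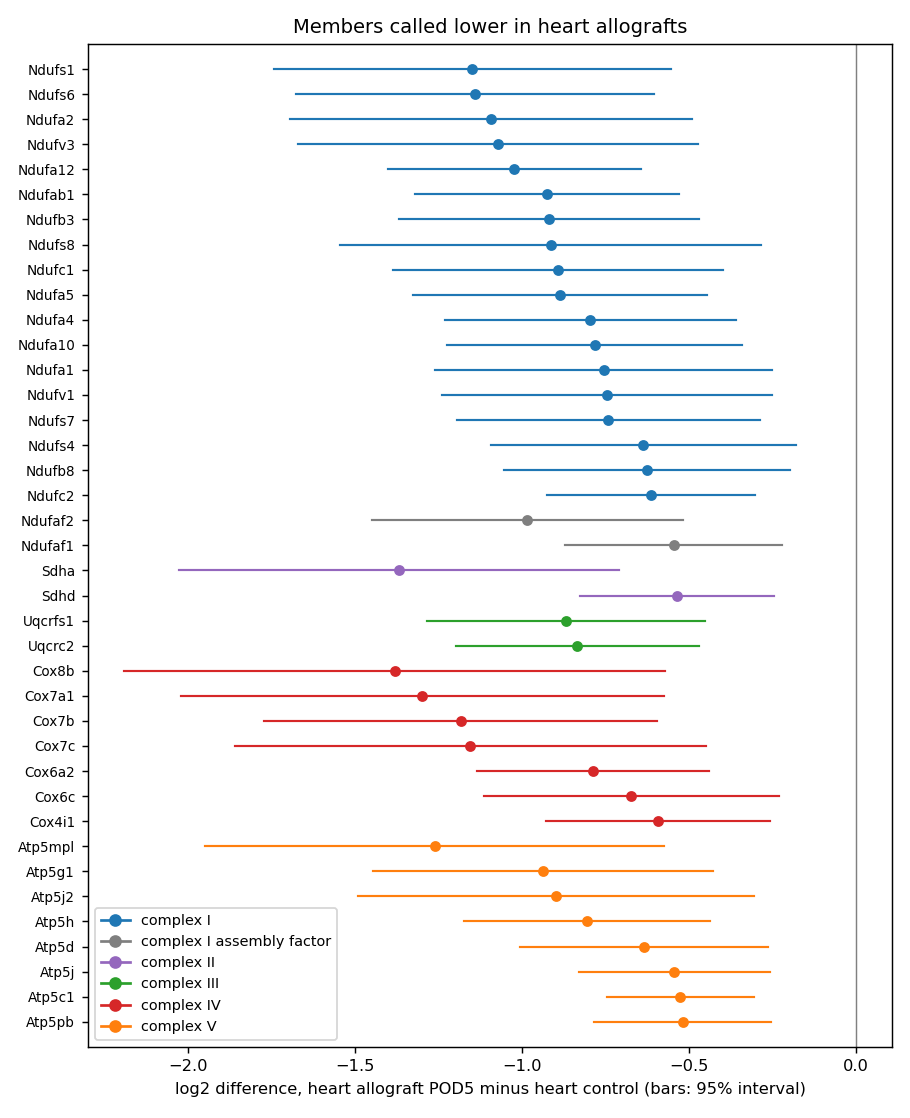
Log2 difference between heart allografts at POD5 and heart controls (horizontal axis) for the 39 members called lower, ordered by complex, with 95% intervals from limma as bars. Point estimates run from -0.52 (Atp5pb) to -1.38 (Cox8b).

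Of the 91 members 19 had several probes, and these did not always give the same call. Ndufab1, the mitochondrial acyl carrier protein, was called lower at -0.93 by its brightest probe and was at 0.15 by another. Ndufv3 was called at -1.07 by its brightest probe, and both of its other probes were at -0.12. Ndufa12 was called by its brightest probe and by another (-1.10), while its remaining probe was at -0.71 and was not called. Ndufc1 was called by its brightest probe (-0.89), and its other probe was at -0.92 without passing the threshold. For Uqcrh and Ndufaf4 the brightest probes were not called, while a dimmer probe of each was called lower (-0.66 and -1.44). The probes of Atp5h, Ndufa1 and Ndufs6 were all called lower.

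Other mitochondrial gene lists are given by their counts, to be read against the 15.2% of all genes called lower and 15.1% called higher. Of 16 measured genes of pyruvate dehydrogenase and the citric acid cycle, which supply the NADH and succinate, 7 were called lower and 0 higher, with a median of -0.61 (among them Dld at -1.24 and Sucla2 at -1.17). Of 10 electron carriers and feeders 5 were called lower, among them Etfdh (-1.44), which passes electrons from fatty acid oxidation to ubiquinone, and Coq3 (-1.52), an enzyme of ubiquinone synthesis. Cytochrome c itself, Cycs, was at 0.03. Of 35 assembly factors outside the rule 7 were called lower, among them Tmem70 (-1.43), which helps to assemble the ATP synthase, and 3 higher. Of 11 genes of ATP and phosphate exchange 3 were called lower, among them the mitochondrial creatine kinase Ckmt2 (-0.90), and 2 higher, the ADP/ATP carrier Slc25a5 (0.55) and Ucp2 (0.74). Slc25a4, the carrier of heart and skeletal muscle, was at -0.05. Of 78 genes of the mitochondrial ribosome 8 were called lower and 2 higher, both smaller shares than over all genes, with a median of -0.14.

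Among 16 regulators of mitochondrial gene expression 4 were called lower and 2 higher, where the same shares of all genes apply. Ppara, a regulator of fatty acid oxidation, was called lower at -1.22, Gabpa, a factor of the ETS family, at -0.91, and Tfb2m, a factor of mitochondrial transcription, at -0.86. Esrrb was also called lower (-1.78), while Esrrg, of the same receptor family, was called higher at 2.67, and Nrf1 was called higher at 0.63. Ppargc1a, the coactivator of mitochondrial biogenesis, was at -1.39 without passing the threshold (adjusted p = 0.090), and Tfam was at -0.23.

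Cell markers moved in the same arrays. Of 16 cardiomyocyte markers 6 were called lower and 0 higher, with a median of -0.59, and their summed signal ran from 1297320 to 1696770 in the allografts and from 1963510 to 2208660 in the controls. All 8 measured T cell markers were called higher, with a median of 4.37 and a summed signal from 19979 to 30667 against 857 to 1243. All 6 endothelial markers were called lower (summed signal 9204 to 9539 against 27495 to 33456), as were 4 of 6 fibroblast markers (208296 to 277397 against 467371 to 669734). Of 9 macrophage markers 2 were called higher and 1 lower (203286 to 222843 against 118989 to 173131), and of 5 neutrophil markers 0 were higher and 1 lower (12985 to 52050 against 52670 to 83191). No marker of the cardiomyocyte, T cell, endothelial, fibroblast, macrophage or neutrophil lists was below background on every heart array. The part of these markers in the result for the members was not tested.

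The number of members called lower in the heart changed when any of the 6 arrays was left out. It was 20, 67 and 10 without allograft 1, 2 and 3, and 18, 11 and 7 without control 1, 2 and 3, while the median difference stayed between -0.73 and -0.50. Under scaling to the 75th percentile 7 members were called lower and 1 higher, the median was -0.55 and that of all genes was 0.56, with 40.7% of all genes higher and 12.8% lower, so the members lay 1.11 below all genes by that scaling and 0.65 below by quantile normalization.

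The third set of comparisons followed the members in liver allografts. At POD5 0 of 91 members were called in either direction, where 2.77% of all genes were higher and 1.02% lower. At an unadjusted p under 0.05 limma gave 1 member higher and 8 lower, against 9.89% and 10.4% of all genes. The median member difference was -0.17 and that of all genes was -0.07. The groups did not overlap in 19 members that were lower and 4 that were higher, against 19.6% and 12.2% of all genes. The 95% interval of a member reached a median of 0.46 to either side, where the median difference in the heart was -0.62.

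Ndufv1 had the smallest adjusted p in the liver at POD5 (0.096), with 13.31, 13.39 and 13.06 in the allografts and 13.93, 14.02 and 13.71 in the controls (log2 difference -0.63). Every allograft lay below every control, but the difference did not pass the threshold. Cox7b and Ndufa3 were at -0.54 and -0.53, again without passing it. Complex II had 3 of its 4 subunits above 0 and a median of 0.30, and none of them was called. Sdhc, a membrane anchor, read 12.31, 12.22 and 12.12 in the allografts and 11.86, 11.71 and 11.998 in the controls (log2 difference 0.36, adjusted p = 0.22). Sdhb was at 0.38 with an interval from -0.76 to 1.52, and its controls were spread from 12.02 to 13.36. Complexes I, III, IV and V had medians of -0.16, -0.30, -0.24 and -0.14. Atp5a1 was at 0.42 (interval -0.11 to 0.95) and Ndufs1 at -0.12 (interval -0.45 to 0.21). The other core subunits ran from Uqcrc1 at -0.40 to Cox5a at 0.27, and the isoforms well above background on all arrays from Cox7a1 at -0.89 to Cox6a2 at 0.46, none of them called. The interval of Cox6a2 was wide (-0.36 to 1.28), Cox4i2, Cox7b2 and Cox8c were not well above background on all arrays of either group, and Cox8b was not well above background on any liver array.

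At POD8 0 of 91 members were called in either direction, where 3.74% of all genes were higher and 1.81% lower. Limma at an unadjusted p under 0.05 gave 1 member higher and 2 lower, against 9.66% and 12% of all genes, and the groups did not overlap in 15 members that were lower and 4 that were higher, against 19.8% and 11.9%. The median member difference was -0.13 and that of all genes was -0.10. Sdhc had the smallest adjusted p at POD8, with 12.28, 12.51 and 12.16 against 11.88, 11.73 and 12.03 (log2 difference 0.44, adjusted p = 0.16), and all 4 complex II subunits were above 0. Ndufa3 and Uqcrq were at -0.43 and -0.41. The heart isoform Cox6a2 was at 0.78 with an interval from -0.08 to 1.65. The core subunits ran from Ndufv1 at -0.24 to Sdhb at 0.63, and the isoforms well above background on all arrays from Cox7a1 at -0.52 to Cox6a2 at the value above, none of them called. The POD5 and POD8 comparisons share the 3 control livers, so their values are given side by side and not as repeats. Within the slide that held 2 POD8 and 2 control arrays, 0 members were called and the median was -0.14, a comparison added after the data were seen. Under scaling to the 75th percentile the median moved to -0.58 at POD5 and -0.50 at POD8, and that of all genes to -0.44 and -0.54. At POD8 2 of the 91 members were then called lower, where 28.4% of all genes were lower and 5.46% higher by that scaling.

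Between POD8 and POD5 livers 0 members and 0% of all genes were called higher, and 0 members and 0% of all genes lower. An unadjusted p under 0.05 was reached by 1 member higher and 1 lower, Ndufaf1 (0.27) and Ndufaf5 (-0.45), against 5.67% and 7.46% of all genes. The median member difference was 0.03. Core subunits ran from Cox5a at -0.13 to Ndufv1 at 0.39, and isoforms well above background on all arrays from Atp5g3 at -0.11 to Cox7a1 at 0.37. In livers of both days 6 of 8 T cell markers were called higher than in controls (summed signal 4675 to 7962 at POD5 and 4129 to 5275 at POD8, against 292 to 347 in the controls over both fits), 1 of 9 macrophage markers was higher (44832 to 53290 at POD5 and 58055 to 65827 at POD8, against 8653 to 25609), and 0 of 12 hepatocyte markers were called. Of the other mitochondrial lists, the citric acid cycle, electron carrier and assembly factor lists had 0 genes called on either day. The mitochondrial ribosome had 1 gene called lower on each day, the regulators had 1 called lower at POD5 (Ppara, -1.26), and ATP and phosphate exchange had 1 called higher at POD8 (Ucp2, 1.47), with list medians between -0.32 and 0.48.

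The last comparison tested whether the members changed differently in the 2 organs at POD5, as the heart difference minus the liver difference in 1 fit. Here 12 members were lower in this sense and 0 were higher, where 7.18% of all genes were lower and 6.69% higher. The median member value was -0.54 and that of all genes was 0.10. Ndufab1 had the smallest adjusted p (0.016) at -1.05, though its other probe was at 0.27 and was not called. Cox6a2 was at -1.48, with differences of -0.79 in the heart and 0.46 in the liver in their separate fits. Cox7c was at -1.30, with -1.15 in the heart and 0.10 in the liver. Because quantile normalization was run over the arrays of each fit, these pairs do not subtract exactly. Sdha was at -1.24 (adjusted p = 0.047), and its second probe was at -0.87 and was not called. Ndufs1 was at -1.08, Ndufs6 at -1.05 with all 3 probes called, and Uqcrfs1 at -0.90. The others were Atp5h (-0.95), Ndufc2 (-0.90), Atp5c1 (-0.89), Sdhd (-0.79) and Atp5pb (-0.77). Core subunits that were not called had values of Ndufv1 -0.16, Sdhb -0.77, Uqcrc1 -0.02, Cox5a -0.54, Cox5b -0.28, Atp5a1 -0.95, Atp5b -0.07 and Atp5o -0.16. Among the isoforms well above background in both organs, Cox7a1 was at -0.54, Cox7a2 at -0.26, Cox6a1 at 0.15 and Cox8a at 0.42, none of them called.

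**Figure D5:**
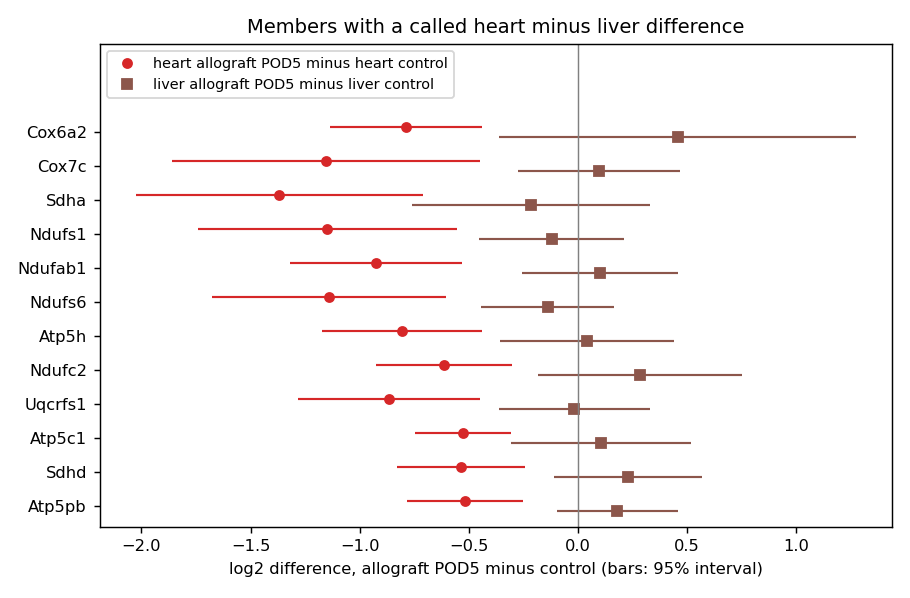
Log2 difference between allografts at POD5 and controls (horizontal axis) in heart (circles) and liver (squares) for the 12 members whose heart minus liver difference was called, with 95% intervals from the separate fits as bars. Heart values run from -0.52 to -1.37 and liver values from -0.21 to 0.46.

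These calls depended on the settings. With the slide as a random block 0 of the 91 members were called. Under scaling to the 75th percentile 0 were called lower and 1 higher, where 6.49% of all genes were lower and 34.5% higher. By that scaling the member median was 0.01 and that of all genes 0.78, so the members lay 0.77 below all genes, against 0.64 below by quantile normalization. Leaving out heart allograft 1, 2 or 3 gave 8, 19 or 2 members called lower, heart control 1, 2 or 3 gave 8, 3 or 3, liver allograft 1, 2 or 3 gave 4, 4 or 7, and liver control 1, 2 or 3 gave 8, 6 or 12. Donor and recipient strains, the site of the graft and the organ differed together, and their parts cannot be told apart.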

How the data were processed

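The labels give 15 samples in 5 groups of 3, each 1 single-colour Agilent array labelled with Cy3, and the labels do not say which came from separate animals. The study's methods give 3 mice per time point in their section on quantitative RT-PCR. P-values here measure the spread between the samples on the arrays. The authors deposited scanner files, and per the file headers Agilent Feature Extraction 10.5.1.1 made the processed signal intensity by subtracting background. The number of arrays limits the precision.

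Control and outlier-flagged spots were left out, spots of a probe averaged, and log2 signals quantile normalized over the arrays of each comparison. The study's methods also used quantile normalization, on natural logs. Limma 3.58.1 (R 4.3.3) was fitted to all probes with Benjamini-Hochberg adjustment, and the code was tested on simulated data. Genes were named from RefSeq accessions (GRCm38.p6), 64.8% of probes. A probe counted as well above background as flagged in the files, and a bound on a fold took the lowest such signal.

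Named genes were the isoform families, a fixed set of core subunits and, per comparison, the 3 largest rises and 3 largest falls among called members, with ranges where none was called, and others were chosen after their values were seen. One gene of that set is not reported here. Members and lists were chosen with earlier results of these data known. Alternatives were other normalizations, background correction, filters, probes, variance models, tests, blocks and leaving out each array. For promoters, Python 3.11.15 searched RefSeq windows, and a gene with several windows counted if any matched. B cell markers, 1 of 6 higher in heart allografts and 0 of 6 called in livers, were also listed, as were 12 measured hepatocyte markers, 2 higher and 2 lower in heart allografts.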

Additional observations from a re-analysis of the deposited data

Results flagged for a closer look

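The change from control to POD5 differed between heart and liver in 12 members by limma's test of the difference itself. The heart difference minus the liver difference was -1.48 for Cox6a2, -1.30 for Cox7c, -1.24 for Sdha, -1.08 for Ndufs1, -1.05 for Ndufab1, -1.05 for Ndufs6, -0.95 for Atp5h, -0.90 for Ndufc2, -0.90 for Uqcrfs1, -0.89 for Atp5c1, -0.79 for Sdhd and -0.77 for Atp5pb. All 12 were called lower in heart allografts, and none was called in liver allografts. For this difference the other probe of Sdha was at -0.87 and that of Ndufab1 at 0.27, neither of them called. With the slide as a random block none of the 12 was called, and groups of 3 arrays were not screened for single arrays that stand apart.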

How the results depend on the processing

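In the heart allografts 39 members were called lower, and 45 to 52 were with quantile normalization over 15 arrays, normexp, the filter on dim probes or the trended prior, and 37 with the mean of all probes. The count was 61 with 1 fit of 5 groups, 7 (and 1 higher) with 75th percentile scaling, 25 by the methods' t-test after Benjamini-Hochberg and 0 by Bonferroni adjustment, by the SFC of the study's methods and by the methods' t-test with Bonferroni. Leaving out 1 array gave 7 to 67 lower and 0 higher, with a median between -0.73 and -0.50.

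The replicate numbers did not pair the arrays: correlations of same-numbered deviations in the heart were 0.05, -0.07 and -0.05. The replicate block moved the heart count to 23 lower and the heart minus liver count to 0, left 67 higher and 2 lower between control organs, and called 0 in each liver comparison.

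In the liver, 75th percentile scaling gave medians of -0.58 at POD5 and -0.50 at POD8. It gave 2 members lower at POD8, against 28.4% of all genes. With 1 fit of 5 groups 1 member was lower at POD5. The methods' t-test, unadjusted, gave 3 higher and 8 lower at POD5, 3 higher and 4 lower at POD8, and 5 higher and 2 lower between the days. Leaving out 1 array gave 0 calls, with medians of -0.19 to -0.13 at POD5, -0.15 to -0.10 at POD8 and 0.02 to 0.09 between the days.

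Between control organs, 75th percentile scaling gave 28 higher, 8 lower and a median of 0.40, with Atp5b at -0.53, Atp5g3 at -0.86 and Cox4i1 at -0.065. By that scaling 19.1% of all genes were higher and 52.0% lower. Bonferroni adjustment gave 2 higher and 0 lower, SFC 3 and 0, and the methods' t-test with Bonferroni 0 and 0. Leaving out 1 array gave 65 to 76 higher and 2 to 3 lower, with medians of 1.11 to 1.31.

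For the heart minus liver difference, 75th percentile scaling gave 1 higher, 0 lower and a median of 0.011, where 34.5% of all genes were higher and 6.49% lower. Bonferroni adjustment and the slide as a random block gave 0 lower. Leaving out 1 array gave 2 to 19 lower and 0 higher, with medians of -0.67 to -0.40. The cause of these shifts was not tested. The isoform ratios kept their sign under quantile normalization and without each array. Signal over background limits Cox4i2, Cox7b2, Cox8c and, in liver, Cox8b.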
